A study of Rattus norvegicus with 14 samples.

Results

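The genes described here carry symbols of zinc finger and other transcription factor families, namely Zfp, Zbtb, Klf, Fox, Ets, Elk, Stat, Tead, Nfi, Atf, Cebp, Tcf and Smad symbols followed by a number or letter. A symbol beginning with Mef2 or Znf was also looked for and matched no gene. The choice used the symbol alone, and each gene was represented by the transcription start site (TSS) with the highest mean level in sciatic nerve, called the main TSS below. There were 84 such genes among the 2993 genes with a symbol, and their TSSs numbered 108 of the 4993 in the table. Of the 84 genes, 56 were Zfp genes, and the other 28 were 4 Atf, 4 Klf, 4 Zbtb, 3 Fox, 3 Stat, 2 Cebp, 2 Nfi and 2 Tcf genes, Elk1, Ets1, Smad5 and Tead4. A symbol is not a function: Foxd2os and Zbtb8os are opposite-strand genes of Foxd2 and Zbtb8 loci, Zfp36 and Zfp36l1 encode RNA-binding proteins that destabilize AU-rich transcripts, and Zfp106 encodes an RNA-binding protein.

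Tn5Prime reads start at the 5′ ends of captured transcripts, so that read starts mark and quantify TSSs. Libraries were made from wild type rat sciatic nerve (2 nerves of adult rats aged 6 to 9 months), from wild type rat primary Schwann cells given vehicle (3 control libraries) or CPT-cAMP (3 cAMP libraries), from wild type parental S16 cells (2 libraries) and from ΔSOX10 S16 cells (4 libraries). The cAMP cells received the cell-permeable analog at 250 µM for 3 days, and control and cAMP cells were both in medium with 5% serum. Both arms had been expanded in 10 nM neuregulin and 2 µM forskolin, itself an activator of cAMP synthesis. S16 is an immortalized rat Schwann cell line, and parental and ΔSOX10 S16 cells were both grown in 10% serum. The 4 ΔSOX10 libraries came from 1 clone each (1-1, 1-2, 2-1 and 2-2), made with 2 guide RNAs against the first coding exon of Sox10, whereas the parental libraries were 2 RNA samples of 1 unedited line. Differences from parental cells therefore include any that arose in cloning. The nerve is a mixed tissue, and in it fewer cells of a type and less RNA per cell cannot be told apart. Nerve and S16 libraries were sequenced on a HiSeq and the primary Schwann cell libraries on a NovaSeq instrument, so levels were tested only within the primary cells and within S16 cells. All TSSs in the table lay within 1 kb of an H3K4me3 peak that overlapped a SOX10 peak in nerve, and nearness to such peaks was therefore not a property of these families.

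The C2H2 zinc finger genes form the largest transcription factor family of mammals, and many of the Zfp genes encode KRAB proteins that silence transposable elements. The Klf, Atf, Cebp, Ets and Stat factors include early-response and stress-response genes, whose transcripts change quickly with signals from outside the cell. In Schwann cells, the HMG-box factor SOX10 and the zinc finger factor EGR2 activate myelin genes, and elevated cAMP moves cultured cells toward a myelinating state.

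Promoter sequences were available from RefSeq (build GRCr8) for 61 of the 84 genes. Because this is 72.6% of them, no share of a motif or base composition was drawn over the whole group. Shown here are 4 promoters of genes whose levels changed: Atf4, Klf6 and Zfp106 were called in both comparisons, and Zfp36 was lower with cAMP. Each is written 5′ to 3′ along the transcript, from 250 bases before to 30 bases after the start that RefSeq lists, which need not be the start measured here. The windows lay at chr7:113684431-113684710 (plus strand), chr17:69458449-69458728 (minus strand), chr1:92799079-92799358 (minus strand) and chr3:127964225-127964504 (minus strand). Capitals mark ACAATG or TGACG on either strand.
Atf4: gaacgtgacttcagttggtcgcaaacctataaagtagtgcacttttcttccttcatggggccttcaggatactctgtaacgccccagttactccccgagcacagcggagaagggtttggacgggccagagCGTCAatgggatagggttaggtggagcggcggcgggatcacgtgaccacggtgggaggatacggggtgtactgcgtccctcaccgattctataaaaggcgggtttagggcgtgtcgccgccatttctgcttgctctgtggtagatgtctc
Klf6: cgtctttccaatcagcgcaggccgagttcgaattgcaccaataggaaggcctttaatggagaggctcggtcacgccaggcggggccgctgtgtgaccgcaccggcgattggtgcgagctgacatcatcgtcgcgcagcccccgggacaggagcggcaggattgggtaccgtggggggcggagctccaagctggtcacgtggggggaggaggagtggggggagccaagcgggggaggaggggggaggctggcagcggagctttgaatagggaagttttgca
Zfp36: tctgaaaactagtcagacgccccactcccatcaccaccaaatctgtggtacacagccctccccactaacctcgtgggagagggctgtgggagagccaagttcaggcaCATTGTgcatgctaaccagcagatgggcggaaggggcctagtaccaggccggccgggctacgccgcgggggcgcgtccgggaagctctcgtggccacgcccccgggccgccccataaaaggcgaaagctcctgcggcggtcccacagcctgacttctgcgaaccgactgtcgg
Zfp106: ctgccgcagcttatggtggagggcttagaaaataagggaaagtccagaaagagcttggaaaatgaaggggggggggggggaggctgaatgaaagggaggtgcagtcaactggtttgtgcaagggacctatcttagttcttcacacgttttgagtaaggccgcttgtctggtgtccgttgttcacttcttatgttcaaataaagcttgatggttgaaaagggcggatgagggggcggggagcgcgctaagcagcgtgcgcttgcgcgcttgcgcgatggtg

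The strings searched on both strands of these windows were ACAAAG and ACAATG for SOX factors, and TGACGTCA and its shorter part TGACG for the cAMP response element, so that every TGACGTCA also counts as TGACG. The Atf4 window held 1 TGACG match, read on the minus strand as CGTCA, and TGACG occurred in 20.9% of the 27457 RefSeq promoter windows of this length. The Zfp36 window held 1 ACAATG match, read as CATTGT, and 12.4% of all windows held one. The Klf6 and Zfp106 windows held none of the strings. Neither did the windows of Zfp865 and Zfp866, which were called in ΔSOX10 cells only and are not shown. This says only that these letters were not in these 280 bases. ACAAAG was present in 17.4% and TGACGTCA in 1.86% of all windows.

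The levels of these genes in nerve were modest. The median main TSS stood at 5.55 RPM (reads per 1000000 reads of the library, mean of both nerves) against 11.97 RPM over all 2993 genes, and 15 of the 84 genes (17.9%) exceeded 20 RPM against 36.0% of all genes. RPM at a TSS counts 5′ ends and needs no correction for transcript length. The genes at the top were Zfp706, a small zinc finger gene, with 140 and 117 RPM in the 2 nerves, and Tcf25, known for a role in ribosome-associated quality control, with 117 and 113 RPM. Klf6 followed with 72.9 and 77.2 RPM, Cebpd with 71.9 and 45.8 RPM, and Atf4 with 41.6 and 67.1 RPM. The 2 nerves disagreed about the order of the last 2 genes, and the lower value of Zfp706 was close to the higher one of Tcf25. The lowest mean was that of Zfp638, at 0.736 and 3.36 RPM. Depth was 29895599 to 79940274 reads per library, and 3 reads corresponded to 0.0375 to 0.1 RPM.

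Detection was narrower than for genes at large. The main TSS exceeded 1 RPM in every one of the 14 libraries for 49 of the 84 genes (58.3%), against 74.2% of all genes. For 4 genes (4.76%), Foxs1, Foxd2, Elk1 and Klf13, no read was listed in any of the 12 culture libraries, against 1.84% of all genes. Foxs1, a forkhead gene known from pericytes and neural crest derivatives, had 10.7 RPM in one nerve and 23.0 RPM in the other at its main TSS (chromosome 3, 154810763 to 154810811, rn5), so a gene present in both nerves was listed at 0 in all cultures. Pdgfrb, a pericyte marker, had 27.1 and 51.2 RPM in nerve. It was also read in cultures without Foxs1 reads, at 22.4 to 26.9 RPM in cAMP and 2.82 to 19.3 RPM in ΔSOX10 libraries. In control libraries it had 0.33 to 1.91 RPM and in parental libraries 3.14 to 5.52 RPM. Its part in the Foxs1 pattern was not tested. The remaining 3 were low in nerve as well, with means of 2.63 RPM for Foxd2, 2.78 RPM for Elk1 and 2.24 RPM for Klf13, whose reads came from 1 nerve only. In the opposite direction, Stat3, a mediator of cytokine signaling, had 6.69 and 14.4 RPM in nerve and 65.4 to 115 RPM in the 12 culture libraries, with no overlap. These differences between nerve and culture were not tested.

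Position relative to the peaks was close to that of genes at large. The main TSS overlapped its H3K4me3 peak in all 56 Zfp genes and in 25 of the other 28, against 96.0% of all genes, and it overlapped the SOX10 peak itself in 61 of the 84 genes (72.6%) against 70.0%. Of the 56 Zfp genes, 16 (28.6%) lay on chromosome 1, which held 12% of all genes in the table. Zinc finger genes often stand in genomic clusters. More than 1 TSS was listed for 4 Zfp genes (7.14%) and 9 of the other genes (32.1%), against 23.0% of all genes. How reads that fit several near-identical zinc finger genes were handled is not given in the sources used here, so the values of clustered Zfp genes may be shared between neighbors.

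The comparison of cAMP-treated with control primary Schwann cells asked which TSSs move as the cells differentiate. Most of these genes were not called with 3 libraries per group, and those that fell outnumbered those that rose. Klf2, Ets1, Zfp36, Klf6, Atf4 and Zfp706 were lower and Cebpd and Zfp106 were higher. Of 78 genes tested, 2 (2.56%) were called higher and 6 (7.69%) lower, where the same rule called 13.5% of all genes higher and 13.9% lower. The call was a limma adjusted p under 0.05 over all 4119 TSSs tested, on log2(RPM + 1). The median log2 fold change was -0.08 over these genes and -0.03 over all genes.

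The split between families was uneven in counts. Among 54 tested Zfp genes, 1 (1.85%) was called higher and 2 (3.7%) lower, where 13.5% and 13.9% of all genes were. Their median absolute log2 fold change was 0.37 against 0.39 over all genes. Among 24 tested genes of the other families, 1 (4.17%) was called higher and 4 (16.7%) lower, with a median absolute log2 fold change of 0.67. The share called lower was thus near that of all genes. Groups did not overlap for 6 of the 78 genes in the direction of higher cAMP and for 14 in the direction of lower cAMP, where 19.5% and 21.1% of all genes did not overlap in these directions.

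**Figure D1:**
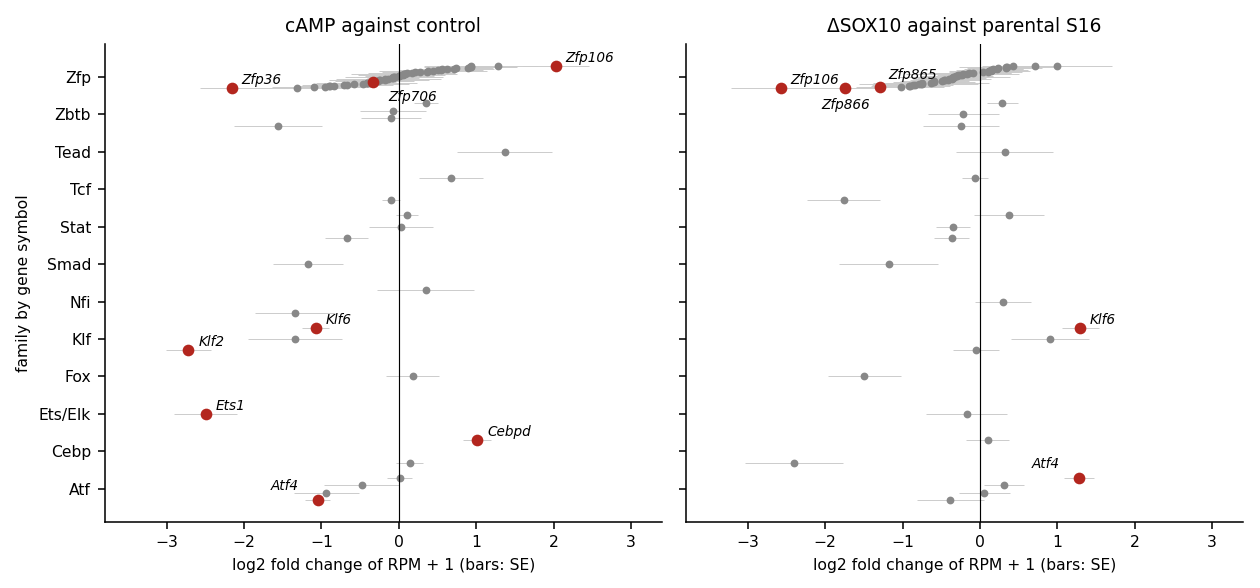
Log2 fold changes of RPM + 1 (horizontal axis, bars are standard errors) at the main TSS of every tested gene, arranged by family, in cAMP-treated against control cells (left, 78 genes) and ΔSOX10 against parental S16 cells (right, 73 genes). Red, labelled points passed the limma test: with cAMP 2 lie to the right of 0 and 6 to the left, and in ΔSOX10 cells 2 lie to the right and 3 to the left.

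The Krüppel-like factors gave the largest change. Klf2, a zinc finger factor known for holding endothelial and T cells in a quiescent state, had 56.9, 61.3 and 63.9 RPM in control libraries and 5.44, 8.93 and 11.9 RPM in those given cAMP at its TSS on chromosome 16 (19086160 to 19086163, rn5). Every cAMP library lay far below every control library, and the log2 fold change was -2.72 ± 0.29 (SE, limma adjusted p = 1.84e-07), a 6.95-fold difference of the means. Klf6, a factor of the same family known from injury responses, had 232, 254 and 257 RPM in control libraries and 160, 126 and 79.1 RPM in those given cAMP (chromosome 17, 69633774 to 69633959). The groups did not overlap, the cAMP libraries differed among themselves by more than the controls, and Klf6 fell by 1.08 ± 0.17 on the log2 scale (limma adjusted p = 5.18e-05). Its call was lost when no filter on low values was used (limma adjusted p = 0.072). Klf9, a hormone-responsive member, reached 3.29 RPM at most in these 6 libraries at its main TSS and was not called (log2 fold change -1.34 ± 0.61, limma adjusted p = 0.13).

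Ets1, the founding ETS factor, had 24.3, 44.8 and 21.6 RPM in control libraries and 3.65, 2.59 and 7.76 RPM in those given cAMP (chromosome 8, 33858286 to 33858387). Even the highest cAMP library was below the lowest control library, and Ets1 fell by 2.5 ± 0.41 on the log2 scale (limma adjusted p = 7.99e-05). Zfp36, whose product tristetraprolin speeds the decay of cytokine transcripts, had 18.7, 20.2 and 19.0 RPM in control libraries and 2.16, 3.55 and 5.47 RPM in those given cAMP (chromosome 1, 86595416 to 86595418). The control libraries were nearly equal and all above the cAMP libraries, and Zfp36 fell by 2.16 ± 0.41 on the log2 scale (limma adjusted p = 0.00039). Its paralog Zfp36l1 had 23.1 to 35.8 RPM in control libraries and 17.2 to 27.1 RPM in those given cAMP, which overlapped, with a log2 fold change of -0.41 ± 0.27 (limma adjusted p = 0.31).

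Atf4, the effector of the integrated stress response, had 163, 139 and 121 RPM in control libraries and 53.7, 77.4 and 73.2 RPM in those given cAMP (chromosome 7, 121468536 to 121468540). The groups stood apart, and Atf4 fell by 1.05 ± 0.16 on the log2 scale (limma adjusted p = 3.90e-05). Atf6, the ER membrane sensor of unfolded proteins, did not move detectably: it had 77.9 to 108 RPM in control libraries and 82.1 to 99.7 RPM in those given cAMP, a log2 fold change of 0.01 ± 0.16. Atf7 and the chromatin cofactor gene Atf7ip were not called, at -0.48 ± 0.49 and -0.94 ± 0.42 on the log2 scale. Within the Atf genes the change was therefore called for Atf4 alone, and the differences between Atf genes were not tested.

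Cebpd, a basic leucine zipper factor of acute-phase and inflammatory responses, was the only member outside the Zfp genes that was called higher. It had 57.7, 60.5 and 37.5 RPM in control libraries and 103, 107 and 101 RPM in those given cAMP (chromosome 11, 92069748 to 92069764). Here the cAMP libraries were the tight group and all were higher, with a log2 fold change of 1.01 ± 0.18 (limma adjusted p = 0.00019). Its call was lost when all 14 libraries shared one estimate of the spread (limma adjusted p = 0.126). Cebpz, a CCAAT-binding factor linked to ribosome biogenesis, had 54.0 to 59.0 RPM in control libraries and 56.2 to 68.9 RPM in those given cAMP.

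Zfp106, an RNA-binding zinc finger gene whose loss in mice causes a motor and sensory neuropathy, rose most. Its main TSS (chromosome 3, 118857604 to 118857679) had 4.59, 2.32 and 5.42 RPM in control libraries and 21.2, 12.6 and 25.8 RPM in those given cAMP. No control library reached the lowest cAMP library, and the log2 fold change was 2.03 ± 0.42 (limma adjusted p = 0.001), a 4.83-fold difference of the means. In nerve it had 68.6 and 28.6 RPM, above all 12 culture libraries. Zfp706 fell by 0.34 ± 0.11 on the log2 scale (limma adjusted p = 0.027), from 333, 360 and 313 RPM in control to 307, 227 and 266 RPM in cAMP cells. That small change did not survive leaving out control 1 (limma adjusted p = 0.0744), control 2 (0.127), cAMP 2 (0.164) or cAMP 3 (0.0847).

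Stat3, Stat6, Nfic, Smad5 and Tcf25 were not called. Stat3 had 90.0 to 102 RPM in control libraries and 94.4 to 115 RPM in those given cAMP (log2 fold change 0.10 ± 0.14). Stat6, which acts downstream of interleukin-4, had 27.3 to 39.6 RPM in control libraries and 14.2 to 24.1 RPM in those given cAMP. Its groups did not overlap, yet the log2 fold change of -0.67 ± 0.27 missed the threshold (limma adjusted p = 0.083). The CTF/NF-I factor Nfic (-1.34 ± 0.52, limma adjusted p = 0.068) and the BMP mediator Smad5 (-1.17 ± 0.45, limma adjusted p = 0.066) were likewise below the controls in every cAMP library without a call. Tcf25 had 192 to 257 RPM in control libraries and 209 to 219 RPM in those given cAMP, a log2 fold change of -0.10 ± 0.11.

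**Figure D2:**
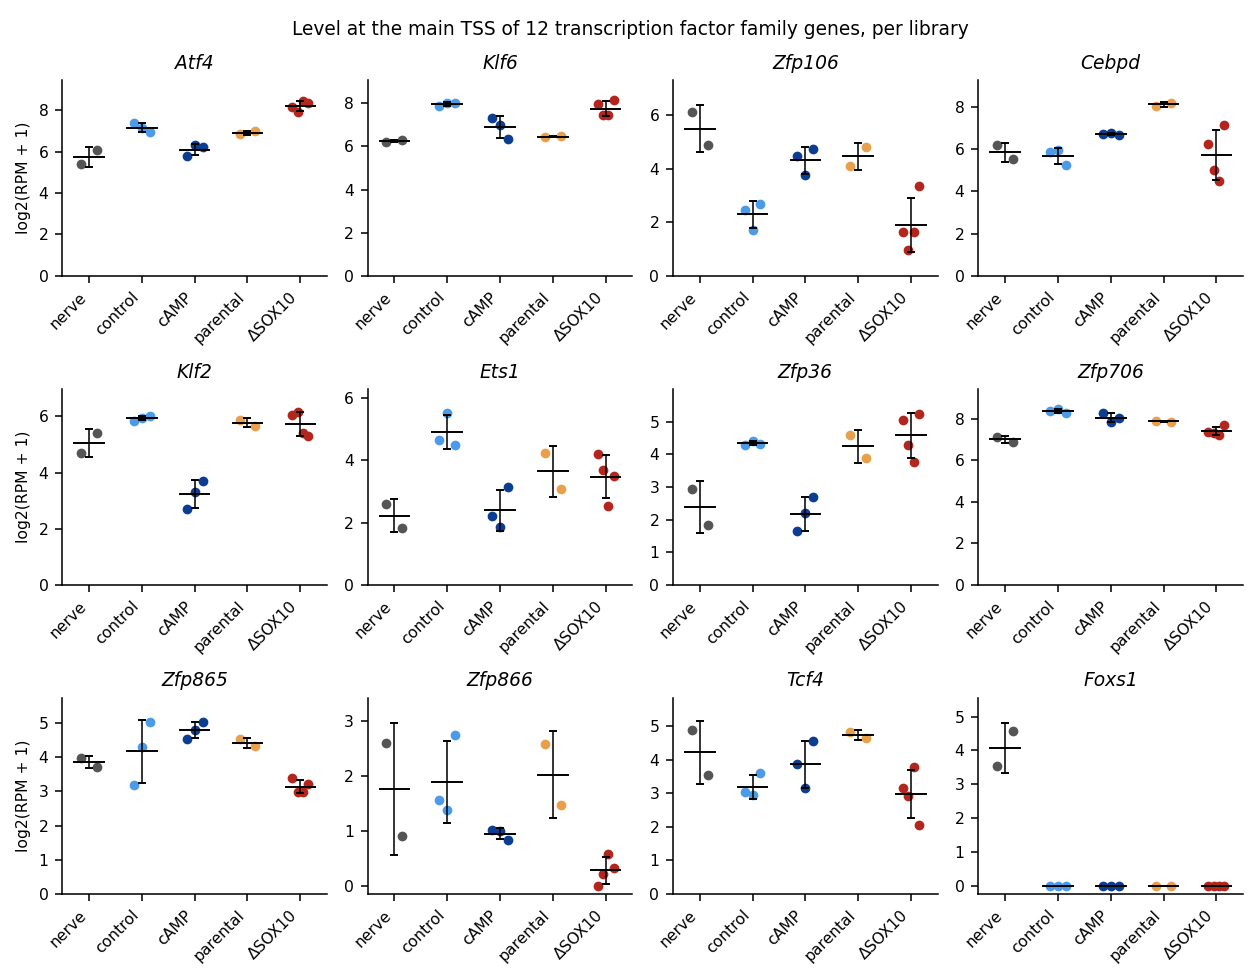
Level at the main TSS, as log2(RPM + 1) on the vertical axis, of 12 genes in each library, grouped as nerve (n = 2), control (n = 3), cAMP (n = 3), parental (n = 2) and ΔSOX10 (n = 4), with horizontal lines for means and bars for SD of the log2 values. Klf2, Ets1 and Zfp36 drop with cAMP and overlap between parental and ΔSOX10 cells, Atf4 and Klf6 drop with cAMP and stand higher in ΔSOX10 cells, and Zfp106 does the opposite; Foxs1 is listed at 0 outside nerve.

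The comparison of ΔSOX10 with parental S16 cells asked which TSSs need SOX10. The deletion was visible in the libraries: the main Sox10 TSS had 90.7 and 77.5 RPM in parental cells and between 0 and 0.114 RPM in the 4 clones. Of 73 genes tested, 2 (2.74%) were higher, where 1.99% of all genes were called higher, and 3 (4.11%) were lower, where 5.5% of all genes were called lower. The genes that rose were Atf4 and Klf6, and the genes that fell were Zfp106, Zfp865 and Zfp866. Of these, Zfp866 passed the filter through the parental libraries alone and could be called lower only. The test was again limma with adjustment over all TSSs tested, here 3875. The median log2 fold change was -0.25 over these genes and -0.17 over all genes, and after TMM scaling the median of all TSSs moved from -0.18 to -0.05, so that small negative values are close to the general shift. No overlap between groups was seen for 4 of the 73 genes upward and for 14 downward, where 8.18% and 22.0% of all genes did not overlap in these directions.

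Atf4 had 114 and 125 RPM in parental cells and 279, 236, 341 and 319 RPM in clones 1-1, 1-2, 2-1 and 2-2. All 4 clones, from both guide RNAs, were higher, with a log2 fold change of 1.28 ± 0.19 (limma adjusted p = 0.0035) and 2.46 times the parental mean. Klf6 had 85.4 and 87.5 RPM in parental cells and 246, 175, 173 and 281 RPM in the clones. The parental libraries were almost equal and every clone was above them, with a log2 fold change of 1.30 ± 0.24 (limma adjusted p = 0.0092). Atf4 and Klf6 were also among the genes called lower with cAMP. Both calls in ΔSOX10 cells were kept when any 1 library was left out. Klf6 lost its call there when no filter on low values was used (limma adjusted p = 0.0571).

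Zfp106 had 16.3 and 27.6 RPM in parental cells and 2.09, 0.966, 2.13 and 9.23 RPM in the clones. Each clone was below both parental libraries, clone 2-2 stood apart from the other 3, and the log2 fold change was -2.57 ± 0.64 (limma adjusted p = 0.042). The call was lost without parental 2 (limma adjusted p = 0.207), clone 1-1 (0.0796), clone 1-2 (0.0796) or clone 2-1 (0.0788), and with edgeR's quasi-likelihood test on recovered reads (0.0842). Zfp865, a C2H2 zinc finger gene, had 22.2 and 19.0 RPM in parental cells and 9.43, 6.91, 6.89 and 8.29 RPM in the clones (chromosome 1, 76161452 to 76161504). The clones were close together and all lower, with a log2 fold change of -1.29 ± 0.32 (limma adjusted p = 0.042). Without parental 1 (limma adjusted p = 0.465), parental 2 (0.303), clone 1-2 (0.0895), clone 2-1 (0.078) or clone 2-2 (0.0545) it was no longer called, nor with TMM scaling (0.0531).

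Zfp866, a further zinc finger gene, was low in all libraries. It had 5.00 and 1.76 RPM in parental cells and 0, 0.153, 0.492 and 0.257 RPM in the clones (chromosome 16, 21306638 to 21306689), a log2 fold change of -1.75 ± 0.43 (limma adjusted p = 0.042). In S16 cells only the parental libraries exceeded 1 RPM, so the TSS passed the filter through the group where it was high. Only a lower call was therefore possible, and this call is no evidence of a direction. The clones were all lower, but the parental libraries differed widely from each other, and the call was kept in 1 of 13 alternatives, with adjusted p values up to 0.102 with limma and 0.282 with edgeR's quasi-likelihood test on recovered reads. Its call was lost without any single clone (limma adjusted p = 0.0648 to 0.102). Without either parental library it did not pass the filter.

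Several other regulators came near the threshold in S16 cells with wide differences between clones. Cebpd had 263 and 294 RPM in parental cells and 76.0, 31.4, 21.4 and 139 RPM in the clones. All clones were lower and they spanned a wide range, with a log2 fold change of -2.40 ± 0.63 (limma adjusted p = 0.053). Cebpd was called lower when clone 2-2 was left out (limma adjusted p = 0.0065), or either parental library (0.0216 and 0.039). It was not called when any other clone was left out, nor with TMM scaling or either count test on recovered reads. Tcf4, which encodes a basic helix-loop-helix E protein, had 27.6 and 23.9 RPM in parental cells and 7.95, 6.53, 12.7 and 3.16 RPM in the clones. Its groups did not overlap either, at -1.76 ± 0.47 (limma adjusted p = 0.056), and it was called lower without clone 2-1 (limma adjusted p = 0.0248) or clone 2-2 (0.0499). Tcf4 was not called when either parental library or either of the other clones was left out, nor with TMM scaling. Foxd2os, the opposite-strand gene, had 22.6 and 25.6 RPM in parental cells and 13.8, 9.33, 3.44 and 8.21 RPM in the clones, without a call (-1.49 ± 0.47, limma adjusted p = 0.10).

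The factors that changed most with cAMP were not called here. Klf2 had 58.4 and 50.2 RPM in parental cells and 38.9 to 70.5 RPM in the clones (log2 fold change -0.05 ± 0.29). Ets1 had 17.6 and 7.39 RPM in parental cells and 4.73 to 17.2 RPM in the clones (-0.17 ± 0.52), and Zfp36 had 23.3 and 13.8 RPM against 12.7 to 36.7 RPM (0.34 ± 0.45). For all 3 genes the groups overlapped. Stat3 (-0.35 ± 0.22) and Stat6 (-0.36 ± 0.23) were also not called, nor were Nfic (0.30 ± 0.36), Atf6 (0.31 ± 0.25), Cebpz (0.10 ± 0.27) and Tcf25 (-0.06 ± 0.17) on the same log2 scale. The main TSSs of Elk1, Foxs1, Foxd2, Klf13, Nfia, Zbtb38, Zfp503, Zfp608, Zfp719, Zfp113 and Zfp189 were too low in S16 cells to be tested, and with cAMP those of Elk1, Foxs1, Foxd2, Klf13, Zfp503 and Zfp335 were.

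Of 72 genes tested in both comparisons, 3 (4.17%) were called in both, and in each the directions were opposite. Over all 2737 genes tested in both, 4.57% were called in both and 3.62% in opposite directions, so that these counts were close to those of genes at large. Atf4 and Klf6 were lower with cAMP and higher without SOX10, and Zfp106 was higher with cAMP and lower without SOX10. The comparisons share no library. Cebpd had the same pair of signs as Zfp106, with a call in the cAMP comparison only. Whether a gene's cAMP and ΔSOX10 effects differ was not tested, as the cells and instruments differ.

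**Figure D3:**
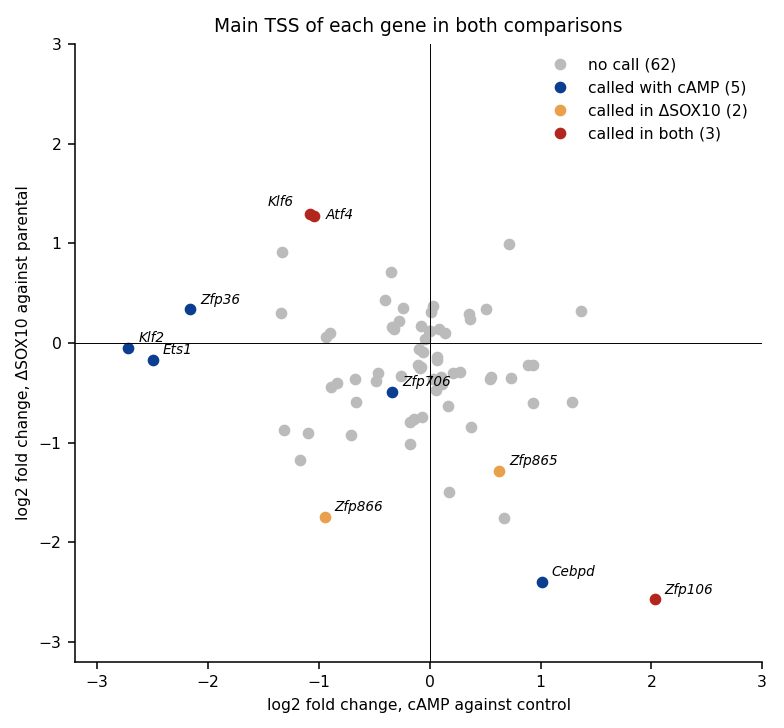
Log2 fold change of RPM + 1 at the main TSS with cAMP (horizontal axis) and in ΔSOX10 cells (vertical axis) for the 72 genes tested in both comparisons, coloured by limma call. The 3 genes called in both, Atf4, Klf6 and Zfp106, lie in the upper left and lower right of the plot, and 62 genes without a call surround 0.

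Other TSSs of the same genes did not always follow the main one. Zfp24, a zinc finger gene needed for central myelin in mice, had a pair of TSSs on chromosome 18, the main one at 15687292 to 15687352 and the other at 15686842 to 15686896. The main TSS had 70.4, 72.8 and 71.5 RPM in control libraries and 107, 81.0 and 93.4 RPM in those given cAMP, a log2 fold change of 0.37 ± 0.15 without a call (limma adjusted p = 0.087). The other TSS had 8.54, 7.61 and 11.96 RPM in control libraries and 47.5, 32.5 and 39.2 RPM in those given cAMP and rose by 1.98 on the log2 scale (limma adjusted p = 2.4e-05). The other TSS thus carried 11.5% ± 2.51 of the gene's reads in control cells and 29.7% ± 1.1 in cAMP cells (SD, n = 3 each). Its share was higher in all 3 cAMP libraries, and the exact two-sided permutation test gave p = 0.1, the smallest that 3 against 3 libraries allow. In nerve the share was 30.4% and 23.7%, and in S16 cells it was 14.02% ± 4.19 in parental cells (n = 2) and 14.4% ± 6.82 in the clones (n = 4).

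**Figure D4:**
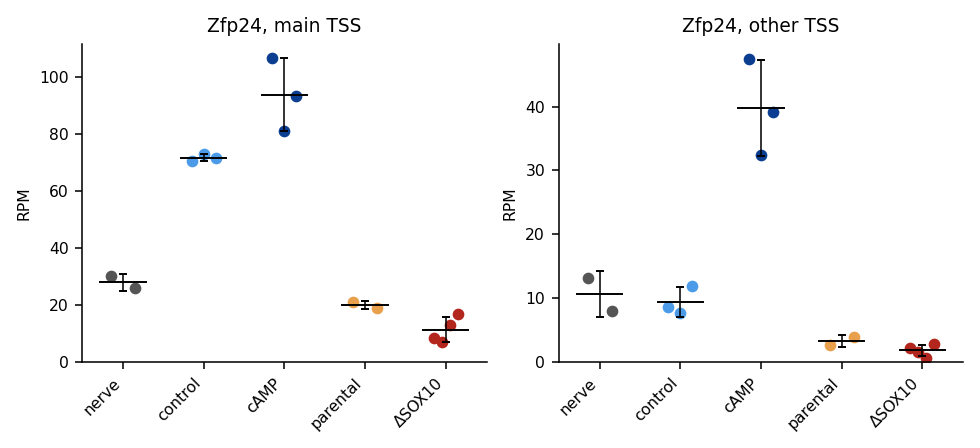
RPM at the main TSS and the other TSS of Zfp24 in each library (points), with group means (lines) and SD (bars), on linear axes that start at 0 and differ between the panels. With cAMP the other TSS stands at 32.5 to 47.5 RPM against 7.61 to 11.96 RPM in control cells, whereas the main TSS differs by much less.

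Of the remaining genes with several TSSs, Atf4 had 7 and Klf6 had 3. At Atf4 the other 6 TSSs together carried 29.4% of the gene's reads in nerve and 5.26% to 7.37% in the culture groups (group means), and none of those tested was called. At Klf6 the others carried 11.9% in nerve and 1.34% to 2.63% in the culture groups. Zbtb38 had a pair of TSSs of which the main one had no read in any S16 library, and all S16 reads of the gene came from the other one. At Klf9 the TSS that was highest in nerve was the minor one in primary cells, where the other TSS carried 86.8% ± 7.49 of the reads in control and 98.0% ± 3.47 in cAMP cells (SD, n = 3 each, exact two-sided permutation p = 0.1). When the reads of all TSSs of a gene were summed, 4 of 78 tested were called higher with cAMP and 10 lower, where 14.6% and 14.7% of all genes summed in this way were called higher and lower.

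Regulators of Schwann cells outside these families were looked at from a list of 56 genes, of which 22 were in the table. Each was taken at its main TSS. With cAMP, 9 of 21 tested were higher and 4 lower (13.5% and 13.9% of all genes), and in ΔSOX10 cells 5 of 19 tested were higher and 2 lower (1.99% and 5.5% of all genes). Jun, a factor of dedifferentiated and repair cells, fell by 3.13 on the log2 scale with cAMP, from 541 ± 65.5 RPM to 60.8 ± 6.21 RPM (SD, n = 3 each, limma adjusted p = 7.1e-15). Egr2, the myelin regulator, had at most 1 read in each control library (0.0109 ± 0.0095 RPM) and 34.0 ± 1.33 RPM in those given cAMP (limma adjusted p = 1.7e-08). Its TSS passed the filter through the cAMP libraries alone, so only a higher call was possible. Ddit3, which encodes the stress factor CHOP and is a known target of ATF4, was lower with cAMP (43.2 ± 9.21 RPM in control, 23.3 ± 3.41 RPM in cAMP cells, limma adjusted p = 0.012) and higher in ΔSOX10 cells (46.8 ± 3.07 RPM in 2 parental libraries, 139 ± 53.0 RPM in 4 clones, limma adjusted p = 0.016). Its directions were those of Atf4 in both comparisons. Cited2, a coactivator gene, had 468 ± 15.01 RPM in control libraries and 19.96 ± 6.28 RPM in those given cAMP, and 76.8 ± 4.45 RPM in parental cells and 574 ± 140 RPM in the clones, called lower and then higher. Nr4a1, a cAMP-responsive nuclear receptor gene, had 13.1 ± 1.33 RPM in control libraries and 119 ± 20.3 RPM in those given cAMP, and 25.9 ± 1.63 RPM in parental cells and 5.15 ± 4.36 RPM in the clones, called higher and then lower, as Zfp106 was. Of the 19 regulators tested in both comparisons, 5 (26.3%) were called in both, these 3 in opposite directions and 2 in the same direction. Over all genes tested in both, 4.57% were called in both and 3.62% in opposite directions. The list was drawn up from regulators known in Schwann cells. Id2, an inhibitor of basic helix-loop-helix factors, was higher with cAMP (62.1 ± 5.45 RPM in control, 571 ± 43.5 RPM in cAMP cells, limma adjusted p = 2.1e-15) and in ΔSOX10 cells (24.2 ± 3.04 RPM in parental cells, 65.7 ± 19.8 RPM in the clones, limma adjusted p = 0.031). The main TSS of Nfe2l2, which encodes the oxidative stress factor NRF2, was also higher with cAMP (43.3 ± 6.77 RPM in control, 80.5 ± 2.26 RPM in cAMP cells, limma adjusted p = 0.00058). It was higher in ΔSOX10 cells as well (46.8 ± 6.86 RPM in parental cells, 102 ± 23.5 RPM in the clones, limma adjusted p = 0.037). Nfe2l2 had 2 TSSs, and the authors listed it among genes with TSSs that fell with cAMP. Only its main TSS is given here.

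Cell type markers moved with the groups. The summed level of 12 Schwann cell markers was 59191 to 60849 RPM in nerve, 5962 to 6123 RPM in control, 7020 to 7864 RPM in cAMP, 4115 to 4385 RPM in parental and 97.3 to 129 RPM in ΔSOX10 libraries. The fibroblast markers in the table, Col1a1 and Pdgfra, summed to 790 to 892 RPM in control libraries and 366 to 459 RPM in those given cAMP, and to 2201 to 2771 RPM in parental and 2910 to 5171 RPM in ΔSOX10 cells, nearly all from Col1a1, while Pdgfra was at 0 in all control libraries. Pdgfrb, the 1 pericyte marker in the table, had 0.33 to 1.91 RPM in control libraries and 22.4 to 26.9 RPM in those given cAMP. The macrophage marker Csf1r had no read in the primary cells, and no listed marker of endothelium, adipocytes or perineurium was in the table. The part of these markers in the changes above was not tested.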

How the data were processed

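Tn5Prime measured transcript 5′ ends in 14 rat libraries. The authors trimmed reads with Cutadapt 1.14, mapped them to rn5 with STAR 2.5.2a, converted them with SAMtools 1.9, clustered read starts with Make_CTSS and Paraclu and counted reads per TSS with featureCounts (Subread 1.6.1). The deposited RPM values are per 1000000 reads of the whole library, for TSSs chosen by nerve H3K4me3 and SOX10 peaks. The deposited log2 fold changes and FDR-corrected p-values of the authors' edgeR 3.24.3 comparisons were not used. The strand and handling of reads that map to several places are not given in the sources used here.

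From these values, limma 3.58.1 in R 4.3.3 (lmFit and eBayes, trend on) tested the log2 of RPM + 1. A TSS entered if at least 2 of a comparison's 6 libraries exceeded 1 RPM, with Benjamini-Hochberg adjustment over all TSSs tested, two-sided, threshold 0.05. A fold change on this scale understates the change of low genes. Groups were taken from the sample labels, and p-values measure the spread between these samples. The RPM values were whole multiples of 1 read, which gave each library's reads; in both parental libraries and clones 1-1 and 1-2, 8.59% to 9.35% of the values were rounded to 3 digits, and reads recovered there are approximate (96.7% to 97.9% of low values whole, against 100% elsewhere). Alternatives were pseudocounts of 0.1 and 5, other filters, TMM and median-ratio scaling, count tests on the recovered reads (edgeR 4.0.16, DESeq2 1.42.0), other samples or TSSs, a replicate block, and each library left out. The fits were tested on simulated data. The RPM given for 3 reads covers counting error only, whereas SDs and SEs are the spread between libraries.

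Named genes were those called in either comparison, those outside the Zfp and Zbtb symbols with a group mean of at least 10 RPM, the 5 highest and the lowest in nerve, up to 10 untested ones, and those whose TSSs were called differently. Some others are named beside these for their values. A gene that met this rule is not reported here. The members, lists, tests and rules were chosen with earlier results of these data known.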

Additional observations from a re-analysis of the deposited data

Results flagged for a closer look

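In the 4 ΔSOX10 clones, 1 clone stood far from the other 3 for 4 of the 73 genes examined, its gap to the nearest clone taking most of the range. Chance alone gives such a gap in about 1 in 20 groups. Stat3 had 93.3 RPM in clone 2-2, where the next clone had 69.0 RPM. Zfp106 had 9.23 RPM in clone 2-2, where the next had 2.13 RPM, and this clone still lay below both parental libraries. Zfp119b had 6.57 RPM in clone 1-1, where the next had 0.41 RPM. Zfp397 had 4.92 RPM in clone 1-1, where the next had 2.24 RPM.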

How the results depend on the processing

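No result reversed. Of 13 called log2 fold changes of named genes, 7 lost their call in at least 1 alternative: Zfp706, Cebpd and Klf6 with cAMP, and Zfp106, Zfp865, Zfp866 and Klf6 in ΔSOX10 cells. For Cebpd this was with all 14 libraries in one model alone, and for Klf6, in both comparisons, without a filter alone. Members higher with cAMP numbered 2, and 5 with DESeq2, 4 with TSSs summed per gene and 1 with all 14 libraries in one model. Members lower with cAMP numbered 6, and 10 with TSSs summed. In ΔSOX10 cells the members that were higher numbered 2, and 1 without a filter. Those that were lower numbered 3, and 1 with a pseudocount of 0.1, with no filter or with median-ratio scaling, 5 with all 14 libraries in one model, and 0 with edgeR's quasi-likelihood test, where 6 had an unadjusted p under 0.05 and DESeq2 called 3. With 1 library left out, these counts ran from 2 to 3, 5 to 8, 2 to 2 and 0 to 3, in this order, the last being 0 without clone 1-2 and 1 without parental 2, clone 1-1 or clone 2-1. The causes were not tested.

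With a replicate block for the paired numbers of control and cAMP libraries, 4 members were higher and 6 lower. Same-numbered libraries deviated together with r of 0.0294, 0.00751 and 0.0379 over all TSSs, and not every library correlated best with its own number. These values did not show a pairing, and so few libraries cannot exclude one. Depth limits members near 1 RPM.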
